A study of Mus musculus with 2 samples.

Results

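A set of genes that carry signals in myeloid cells, the blood lineage of macrophages, neutrophils and osteoclasts, was followed across the nuclei of dFLEx CDS mouse tumors. The members were 9 of the 19059 genes counted: the transcription factors Irf8 and Spi1, the kinases Fgr, Lyn and Syk, the adaptors Lcp2 and Pik3ap1, and the guanine nucleotide exchange factors Dock2 and Dock8. They were chosen by their UMI counts in the same matrices, which earlier results had shown to be lower in Minnelide than in untreated tumors, so every difference of a member between the groups is given as a description, with no test. All 9 were found by symbol, each with a single row in all 8 matrices. Summed over all nuclei of a tumor, the members stood at 843, 489.8, 482 and 347 CPM (UMIs scaled to 1000000 UMIs per set of nuclei) in untreated tumors 1 to 4 and at 205, 254, 241 and 252 CPM in Minnelide tumors 1 to 4. Within macrophage-like nuclei the same sum was 5144, 3128, 4881 and 3592 CPM for untreated and 4258, 3584, 4144 and 4908 CPM for Minnelide tumors, and the groups overlapped.

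Myeloid cells sense their surroundings through receptors and adaptor proteins that carry ITAM motifs. When such a receptor is engaged, Src-family kinases such as Lyn and Fgr phosphorylate the ITAM, Syk docks on it and is activated, and adaptors such as Lcp2 (SLP-76) and Pik3ap1 (BCAP) pass the signal to phospholipase C, to phosphoinositide 3-kinase and, through exchange factors such as Dock2 and Dock8, to the small GTPases RAC and CDC42 that remodel actin. Spi1 encodes PU.1, the ETS factor that directs macrophage and osteoclast development, and Irf8 encodes an interferon regulatory factor that favors monocytes and macrophages and restrains osteoclast formation.

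dFLEx CDS mice carry a CIC::DUX4 transgene behind a CAG promoter that is read only after both Cre and FLP recombination, and tumors arose in hind limb muscle electroporated with plasmids for Cre and FLPE, so each tumor began in a mouse's own muscle. The untreated group held 4 tumors with the genotype dFLEx CDS +/- per the labels. The other group held 4 dFLEx CDS tumors from mice given 0.42 mg/kg Minnelide, a water-soluble prodrug of the transcription inhibitor triptolide, daily for 21 days, and the labels of that group state no genotype. The study picked Minnelide tumors with either a good or a poor response to the agent, so that group mixes both, and no label says which tumor is which. Names of some Minnelide matrices carry words for response, which were not used to group tumors. Single-nucleus RNA was counted as UMIs, each matrix was taken as a tumor, the labels give no age, sex or batch, and a difference between sequencing runs and the treatment cannot be told apart.

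After filtering, 59356 nuclei of 72338 were kept, 4449 to 10258 per tumor, with 15878347 to 61995298 UMIs per tumor. A nucleus of untreated tumor 4 held a median of 880.0 UMIs, against medians of 2426 to 4061 for the other tumors, so levels from untreated tumor 4 rest on fewer counts. Tumors shared cell barcodes in 4 of 28 pairs, each an untreated with the Minnelide tumor of the same number, with 49 to 132 barcodes per pair, although the numbers come from file order and not from the labels. Removing those nuclei left the ratio of Minnelide to untreated summed member CPM at 0.441, against 0.44 with them.

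Members were left out of the genes used for clustering and of the marker lists that named clusters. Of 32 clusters, 2 were macrophage-like (1311 nuclei) and 1 was osteoclast-like (668 nuclei), and these 3 are called the leukocyte clusters. The remaining clusters were tumor-like (15), myocyte-like (6), fibroblast-like (3), endothelial-like (3) and pericyte-like (2), and none took the name of T/NK, B, neutrophil, dendritic or mast cells. In 3 of these clusters the leading genes were those of another class: 1 tumor-like cluster (1023 nuclei, nearly all of Minnelide tumor 2) was led by genes of a myocyte-like cluster such as Agbl1, Fgf13 and Myo18b, while 1 tumor-like cluster (479 nuclei, nearly all of Minnelide tumor 4) and 1 endothelial-like cluster (464 nuclei, mostly of untreated tumor 3) were led by genes of fibroblast-like clusters such as Brinp3, Glis3 and Naaladl2. Their names rest on raised markers alone, and the tumor-like and endothelial-like values below include them. In the larger macrophage-like cluster (1022 nuclei), which held all macrophage-like nuclei of the tumors other than untreated tumor 1, 13 of 14 macrophage markers were raised. In the smaller one (289 nuclei), all of untreated tumor 1, 14 of 14 were raised, so the macrophage-like values of that tumor come from a cluster of its own. All 11 osteoclast markers were raised in the osteoclast-like cluster. When the nuclei of the 3 leukocyte clusters were sub-clustered, 120 nuclei took the name tumor and 31 stayed unnamed. Those 120 had 8 of 8 tumor markers raised, with Fyb, Arhgap15 and Ptprc among their leading genes. Both sets stay in the leukocyte values below, except where sub-clusters are named again. Summed over the list, the 10 leukocyte markers stood at 2002 to 3030 CPM in macrophage-like nuclei of untreated tumors and at 1974 to 3479 CPM in those of Minnelide tumors. The neutrophil markers summed to 29.6 to 83.7 CPM and 33.0 to 43.8 CPM there, with 3 of 7 genes at 0 in all tumors. The T/NK markers summed to 30.8 to 341 CPM in untreated and 33.3 to 269.8 CPM in Minnelide tumors, the B-cell markers to 51.3 to 175 CPM in untreated and 51.0 to 99.9 CPM in Minnelide tumors and the dendritic markers to 92.4 to 123 CPM in untreated and 72.6 to 117 CPM in Minnelide tumors, in each case with overlapping groups.

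The number of leukocyte nuclei was compared first. Macrophage-like nuclei made up 3.29, 4.73, 3.17 and 0.575% of the nuclei of untreated tumors 1 to 4 and 1.59, 2.43, 1.74 and 1.48% of those of Minnelide tumors 1 to 4. Untreated tumor 4 was the lowest of all 8 and untreated tumors 1 to 3 were the highest 3, so the groups overlapped. The share came to 2.94% ± 1.73 of untreated and 1.81% ± 0.428 of Minnelide nuclei (SD, n = 4 tumors each, two-sided exact permutation p = 0.314, adjusted exact p = 0.314). Osteoclast-like nuclei made up 0.586, 2.49, 3.22 and 0.877% and 0.359, 0.546, 0.556 and 1.78%, with Minnelide tumor 4 apart from the other Minnelide tumors. Their share came to 1.79% ± 1.27 of untreated and 0.809% ± 0.651 of Minnelide nuclei (SD, n = 4 tumors each, two-sided exact permutation p = 0.171, adjusted exact p = 0.300). Both kinds together came to 4.73% ± 2.61 of untreated and 2.62% ± 0.604 of Minnelide nuclei (SD, n = 4 tumors each, two-sided exact permutation p = 0.200, adjusted exact p = 0.300). None of the 3 differences passed the test, and the adjusted values run over the 3 shares. With 4 tumors against 4 the smallest p this test allows is 0.0286. Counting error was small beside this spread: the exact binomial (Clopper-Pearson) 95% interval of the macrophage-like share in untreated tumor 4 ran from 0.438% to 0.741%. Intervals of this kind cover counting error only.

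In each tumor taken whole, all 9 members had lower mean CPM in the Minnelide group, and 7 of 9 had groups that did not overlap. Among the 13801 genes tested in all nuclei, 6.83% had groups that did not overlap with the Minnelide group lower, and 49.2% had a negative log2 fold change. The edgeR quasi-likelihood fit across those genes called 0 genes at an adjusted p under 0.05 (1364 genes at an unadjusted p under 0.05), beside 175 for DESeq2. In macrophage-like nuclei, 0 of 9 members had groups that did not overlap with the Minnelide group lower, against 0.953% of 7133 genes, and 5 of 9 had a negative log2 fold change, against 51.8% of genes. There edgeR and DESeq2 each called 0 genes (212 and 144 at an unadjusted p under 0.05). In CPM summed over a whole tumor, fewer leukocytes and less RNA per leukocyte cannot be told apart, so each member is given below both for all nuclei and within the leukocyte clusters. Gene positions are those of GENCODE vM39 on GRCm39, and log2 fold changes are Minnelide over untreated from the edgeR fits.

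Both transcription factors were lower in the Minnelide tumors over all nuclei and had smaller differences within macrophage-like nuclei. Spi1 (chr2:90912562-90946101, plus strand) encodes PU.1. Over all nuclei it stood at 30.4, 35.9, 27.2 and 13.2 CPM in untreated tumors 1 to 4 and 6.52, 6.97, 8.22 and 12.5 CPM in Minnelide tumors 1 to 4. Every untreated tumor was above every Minnelide tumor, although untreated tumor 4 and Minnelide tumor 4 were close, and the log2 fold change was -1.49 ± 0.34 (SE). In osteoclast-like nuclei, where Spi1 had its highest mean, it stood at 357, 469, 405 and 311 CPM in untreated tumors 1 to 4 and 257, 319, 203 and 242 CPM in Minnelide tumors 1 to 4. Minnelide tumor 2 lay above untreated tumor 4, so the groups overlapped, with a log2 fold change of -0.56 ± 0.20 (SE). In macrophage-like nuclei it was 192 ± 53.7 CPM against 155 ± 44.7 CPM (SD, n = 4 tumors each), with overlapping groups and a log2 fold change of -0.34 ± 0.27 (SE).

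Irf8 (chr8:121463096-121485659, plus strand), the interferon regulatory factor, stood at 27.2, 12.3, 10.3 and 9.19 CPM in untreated tumors 1 to 4 and 4.15, 6.24, 6.30 and 8.65 CPM in Minnelide tumors 1 to 4 over all nuclei. Untreated tumor 1 lay far above the rest, while untreated tumor 4 and Minnelide tumor 4 nearly met, and the log2 fold change was -1.03 ± 0.36 (SE). In macrophage-like nuclei the values were 157, 84.3, 129.6 and 123 CPM in untreated tumors 1 to 4 and 85.8, 36.3, 97.7 and 87.5 CPM in Minnelide tumors 1 to 4. Minnelide tumor 2 was the lowest and the other 3 Minnelide tumors lay between untreated tumor 2 and the remaining untreated tumors, so the groups overlapped, with a log2 fold change of -0.68 ± 0.31 (SE). Osteoclast-like nuclei held 0 to 15.2 CPM of Irf8, with 10 UMIs in all untreated and 1 in all Minnelide tumors, too few to pass the filter on low counts. By class, Irf8 had its highest mean in macrophage-like nuclei, at 100.2 CPM over 8 tumors against 25.2 CPM in endothelial-like nuclei, the next class.

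The Src-family kinases Fgr and Lyn start ITAM signaling, and they differed in where they were found. Fgr (chr4:132701257-132730053, plus strand) stood at 25.2, 12.4, 10.9 and 6.93 CPM in untreated tumors 1 to 4 and 4.73, 4.07, 4.40 and 2.94 CPM in Minnelide tumors 1 to 4 over all nuclei, with every untreated tumor above every Minnelide tumor and a log2 fold change of -1.59 ± 0.36 (SE), the lowest of the 9 members. Within macrophage-like nuclei it stood at 214, 133, 278 and 144 CPM in untreated tumors 1 to 4 and 156, 59.4, 155 and 109 CPM in Minnelide tumors 1 to 4. The groups overlapped, since Minnelide tumors 1 and 3 lay above untreated tumors 2 and 4, and the log2 fold change was -0.68 ± 0.32 (SE). In osteoclast-like nuclei Fgr reached at most 13.2 CPM and did not pass the filter.

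Lyn (chr4:3678061-3813122, plus strand) stood at 234, 149.5, 179.7 and 131 CPM in untreated tumors 1 to 4 and 97.8, 95.2, 104 and 94.4 CPM in Minnelide tumors 1 to 4 over all nuclei, and the groups did not overlap. Its log2 fold change of -0.66 ± 0.16 (SE) was the one nearest to 0 among the members. In macrophage-like nuclei Lyn stood at 982, 775, 1277 and 1037 CPM in untreated tumors 1 to 4 and 1053, 1142, 997 and 1298 CPM in Minnelide tumors 1 to 4, with overlapping groups. The log2 fold change there was 0.15 ± 0.22 (SE), and it was just under 0 with no doublet removal and with leukocyte sub-clusters named again. Lyn was found well outside the leukocyte clusters: its mean was 1070 CPM in macrophage-like, 381 CPM in osteoclast-like and 375 CPM in endothelial-like nuclei. The osteoclast-like and endothelial-like values overlapped, and the lowest macrophage-like tumor was above the highest osteoclast-like one.

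Syk (chr13:52736696-52802828, plus strand), the tandem-SH2 kinase that binds phosphorylated ITAMs, stood at 77.4, 41.9, 36.4 and 23.2 CPM in untreated tumors 1 to 4 and 11.6, 24.4, 13.7 and 23.5 CPM in Minnelide tumors 1 to 4 over all nuclei. Untreated tumor 4 lay just under Minnelide tumors 2 and 4, so the groups overlapped, with a log2 fold change of -1.10 ± 0.37 (SE). In osteoclast-like nuclei Syk stood at 531, 469, 374 and 370.0 CPM in untreated tumors 1 to 4 and 237, 241, 246 and 299.8 CPM in Minnelide tumors 1 to 4. There every untreated tumor was above every Minnelide tumor, and the log2 fold change was -0.70 ± 0.18 (SE). In macrophage-like nuclei it was 368 ± 146 CPM against 319 ± 29.9 CPM (SD, n = 4 tumors each), and the 4 Minnelide tumors lay inside the untreated range. The log2 fold change there, -0.20 ± 0.27 (SE), turned to 0.13 without untreated tumor 1.

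Both adaptors were lower in the Minnelide tumors over all nuclei, and in osteoclast-like nuclei their means were lower too. Lcp2 (chr11:33996920-34042426, plus strand), the scaffold SLP-76, stood at 44.3, 41.4, 50.8 and 30.8 CPM in untreated tumors 1 to 4 and 9.32, 8.95, 16.1 and 18.6 CPM in Minnelide tumors 1 to 4 over all nuclei, with no overlap and a log2 fold change of -1.51 ± 0.29 (SE). In osteoclast-like nuclei it stood at 584, 605, 694 and 542 CPM in untreated tumors 1 to 4 and 309.6, 297, 439 and 352 CPM in Minnelide tumors 1 to 4. Those groups did not overlap either, with a log2 fold change of -0.73 ± 0.20 (SE). In macrophage-like nuclei Lcp2 ranged from 92.4 to 354 CPM, both of them untreated tumors, with the Minnelide tumors between, and the log2 fold change of -0.28 ± 0.37 (SE) turned to 0.06 without untreated tumor 1. Lcp2 and Syk were the 2 of 9 members whose osteoclast-like groups did not overlap, and 5.07% of the 5449 genes tested in osteoclast-like nuclei had such groups with the Minnelide group lower.

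Pik3ap1 (chr19:41260816-41373548, minus strand), the adaptor BCAP that recruits phosphoinositide 3-kinase, stood at 38.9, 32.0, 38.4 and 18.8 CPM in untreated tumors 1 to 4 and 8.77, 12.0, 11.7 and 15.3 CPM in Minnelide tumors 1 to 4 over all nuclei. The groups did not overlap and the log2 fold change was -1.27 ± 0.27 (SE). In macrophage-like nuclei it stood at 347, 209.9, 417 and 236 CPM in untreated tumors 1 to 4 and 416, 254, 282 and 416 CPM in Minnelide tumors 1 to 4, and Minnelide tumors 1 and 4 lay just under the highest untreated tumor. The log2 fold change there, 0.16 ± 0.26 (SE), was negative with no doublet removal, with no mitochondrial filter and at a finer clustering. In osteoclast-like nuclei the means were 338 ± 109.5 CPM against 196 ± 61.1 CPM (SD, n = 4 tumors each), with overlapping groups.

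Both DOCK genes had lower means in the Minnelide tumors over all nuclei and close means within macrophage-like nuclei. Dock2 (chr11:34176815-34674798, minus strand, with Insyn2b inside its bounds) activates RAC in hematopoietic cells. Over all nuclei it stood at 215, 71.7, 46.4 and 35.3 CPM in untreated tumors 1 to 4 and 28.1, 52.2, 36.1 and 33.8 CPM in Minnelide tumors 1 to 4. Minnelide tumor 2 lay above untreated tumors 3 and 4. Untreated tumor 1 lay far above every other tumor, and without untreated tumor 1 the log2 fold change moved from -1.08 to -0.34. In macrophage-like nuclei Dock2 stood at 1647, 881, 1261 and 1006 CPM in untreated tumors 1 to 4 and 1285, 1093, 1321 and 1473 CPM in Minnelide tumors 1 to 4, with the 4 Minnelide tumors inside the untreated range. The log2 fold change there, 0.11 ± 0.24 (SE), was negative under 4 of 16 alternatives. Its mean there was 1246 CPM over 8 tumors against 74.5 CPM in osteoclast-like nuclei, and the lowest macrophage-like value was above the highest value of any other class.

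Dock8 (chr19:24976865-25179796, plus strand) encodes an exchange factor for CDC42 that leukocytes need to move through tissue. It stood at 149.7, 92.6, 81.8 and 79.0 CPM in untreated tumors 1 to 4 and 33.9, 44.2, 40.7 and 41.9 CPM in Minnelide tumors 1 to 4 over all nuclei, with no overlap and a log2 fold change of -1.15 ± 0.19 (SE). In macrophage-like nuclei it was 583 ± 141 CPM against 614 ± 114 CPM (SD, n = 4 tumors each), and the groups overlapped, with a log2 fold change of 0.07 ± 0.22 (SE) that was negative under 7 of 16 alternatives. Endothelial-like nuclei held 116 to 249 CPM of Dock8, under both leukocyte classes by mean.

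**Figure D1:**
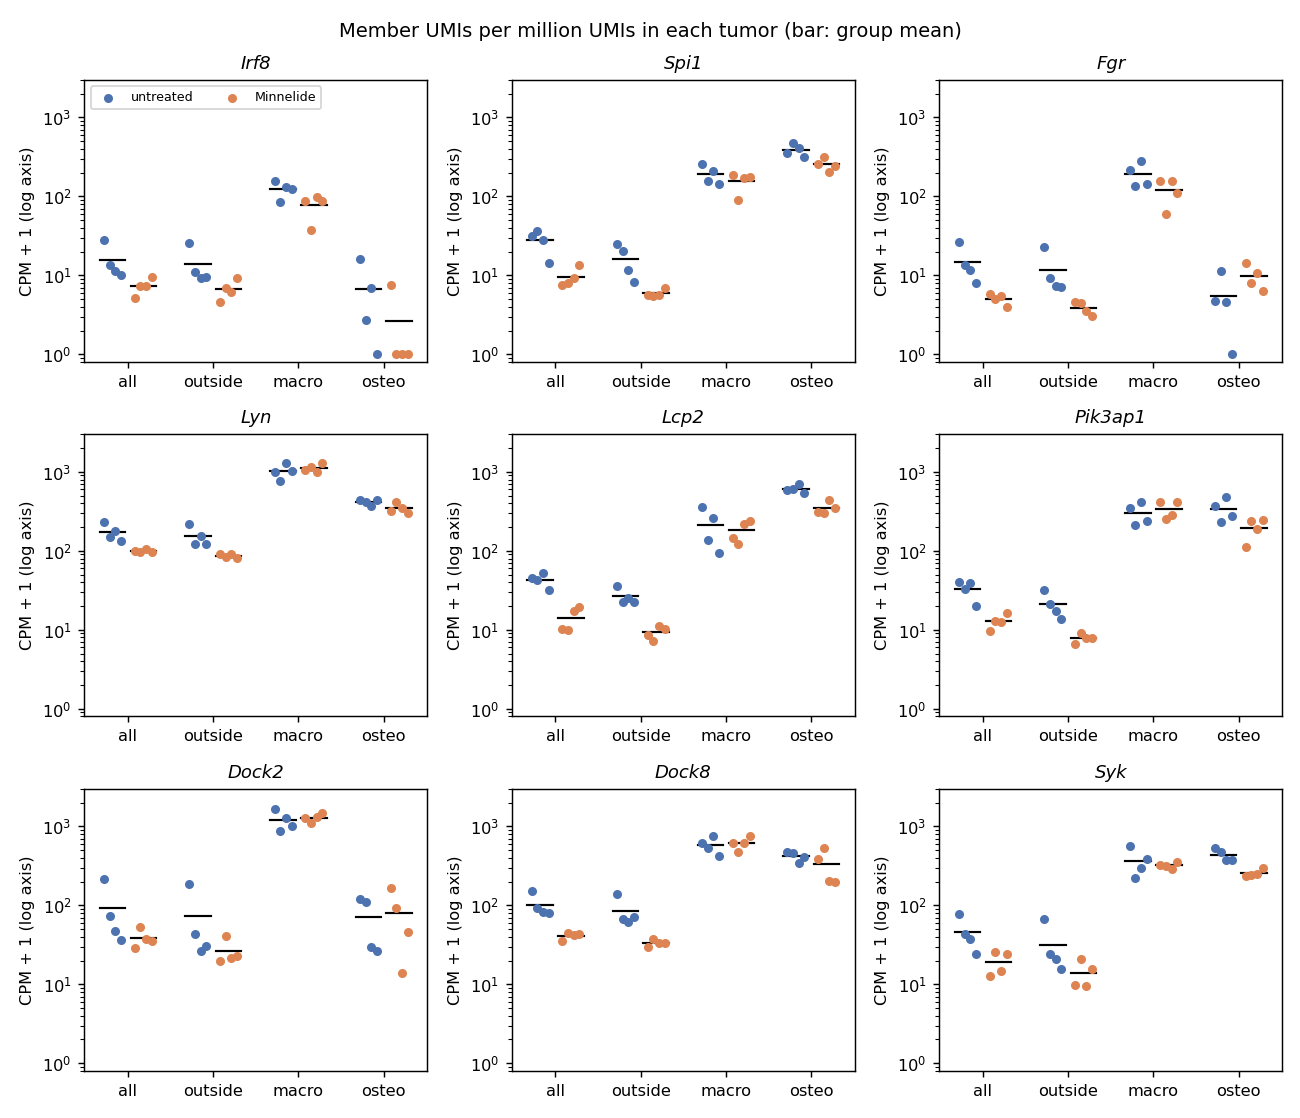
CPM plus 1 of each member on a log axis, 1 dot per tumor (blue untreated, orange Minnelide) with a bar at the group mean, for all nuclei, nuclei outside the leukocyte clusters, macrophage-like (macro) and osteoclast-like (osteo) nuclei. The groups separate for 7 of 9 members over all nuclei and for 0 of 9 in macrophage-like nuclei, while Lcp2 and Syk separate in osteoclast-like nuclei. Among all genes tested, groups separated with the Minnelide group lower for 6.83% in all, 0.953% in macrophage-like and 5.07% in osteoclast-like nuclei. So 0 of 9 in macrophage-like nuclei is near the share of all genes there.

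By class, the members differed in the class that held the highest level. Irf8, Fgr, Lyn, Pik3ap1, Dock2 and Dock8 had their highest mean CPM in macrophage-like nuclei, while Spi1, Lcp2 and Syk had theirs in osteoclast-like nuclei. For Spi1 the means over 8 tumors were 320.3 CPM in osteoclast-like and 173 CPM in macrophage-like nuclei, and the classes overlapped. For Lcp2 they were 478 and 195 CPM, and for Syk 346 and 344 CPM with almost the same mean. The level of Fgr was 156 CPM in the macrophage-like class against 7.86 CPM in the tumor-like class, the next one, yet macrophage-like nuclei held 12.7% to 42.9% and tumor-like nuclei 25.4% to 75.9% of the Fgr UMIs of a tumor. These are levels of 1 gene across classes and are not compared between genes, since CPM takes no account of gene length.

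Number and level were then separated for the leukocyte clusters. Summed over the 9 members, the mean over tumors was 540.4 CPM for untreated and 238 CPM for Minnelide tumors, a difference of -302 CPM. UMIs in the leukocyte clusters held -75.8 CPM of this difference (25.1%), and UMIs outside them held -227 CPM (74.9%). With the level within leukocyte nuclei held at the mean of the 8 tumors, so that only the leukocyte share of UMIs varied, the leukocyte difference was -67.5 CPM. With that share held at its mean, so that only the level varied, it was -9.61 CPM. Most of the leukocyte part thus went with the share of UMIs from leukocyte nuclei, a share that depends on the mix of nuclei and on UMIs per nucleus, and the rest with the level within them. That level is over macrophage-like and osteoclast-like nuclei pooled, so it also varies with the mix of these kinds.

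The split varied by member. With all 8 tumors, the leukocyte clusters held the largest part of the difference for Spi1 (45.7%), Lcp2 (42.0%) and Pik3ap1 (37.6%), and the smallest for Lyn (16.8%). For Lyn and Dock2 the level taken alone was higher in the Minnelide group, by 2.41 and 3.07 CPM, while the number taken alone gave -15.0 and -14.3 CPM. The mix of leukocyte kinds bears on such levels: Dock2 averaged 1246 CPM in macrophage-like and 74.5 CPM in osteoclast-like nuclei. Its part in them was not tested. For Lcp2 the level alone gave -5.35 CPM and the number alone -7.01 CPM. Without untreated tumor 1 the summed difference was -202 CPM, the leukocyte clusters held 40.5% of it, and the level alone gave 2.35 CPM. The order of members changed too: the leukocyte clusters then held 63.5% of the difference for Syk (from 35.6%), 59.2% for Spi1, 54.8% for Dock2 (from 19.2%), 51.9% for Lcp2 and 50.2% for Pik3ap1, with 26.1% for Lyn still the lowest. That tumor thus bore on the split of single members, on the size of the part outside the leukocyte clusters and on the sign of the small level part.

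Taken over both kinds of leukocyte nuclei, the members had a median log2 fold change of -0.38 (range -0.79 to 0.24), and 3 of 9 had groups that did not overlap, against 2.3% of genes with the Minnelide group lower. That median stands beside -0.02 for all 8422 genes tested, and without untreated tumor 1 it was -0.048. The 3 members without overlap were Spi1, Lcp2 and Syk, whose highest mean was in osteoclast-like nuclei. Values pooled over both kinds also vary with their mix. In macrophage-like nuclei the median was -0.20 beside -0.02, and without untreated tumor 1 it was 0.09. In osteoclast-like nuclei 7 of 9 members passed the filter, and their median was -0.56 beside -0.01. The summed member level was 2879, 2776, 2698 and 2377 CPM in osteoclast-like nuclei of untreated tumors and 1812, 2139, 1647 and 1686 CPM in those of Minnelide tumors, with no overlap. These classes held 52, 121, 209 and 90 nuclei in untreated and 33, 37, 47 and 79 in Minnelide tumors. The osteoclast markers that name the class had a mean sum of 13642 CPM in untreated tumors and of 8869 CPM in Minnelide tumors there, with overlapping groups, and the leukocyte markers averaged 1845 and 1337 CPM with no overlap. Per UMI of the 10 leukocyte markers, the members gave 1.49 ± 0.276 UMIs in untreated and 1.37 ± 0.2375 in Minnelide tumors there (SD, n = 4 each). Lcp2 gave 0.342 and 0.262, and Syk gave 0.238 and 0.192. Scaled this way the groups overlapped for the sum, for Lcp2 and for Syk. The part of these marker levels in the member difference was not tested. The osteoclast-like fit was added after the data were seen, and edgeR called 0 of its 5449 genes at an adjusted p under 0.05, with 779 at an unadjusted p under 0.05, while DESeq2 called 63.

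**Figure D2:**
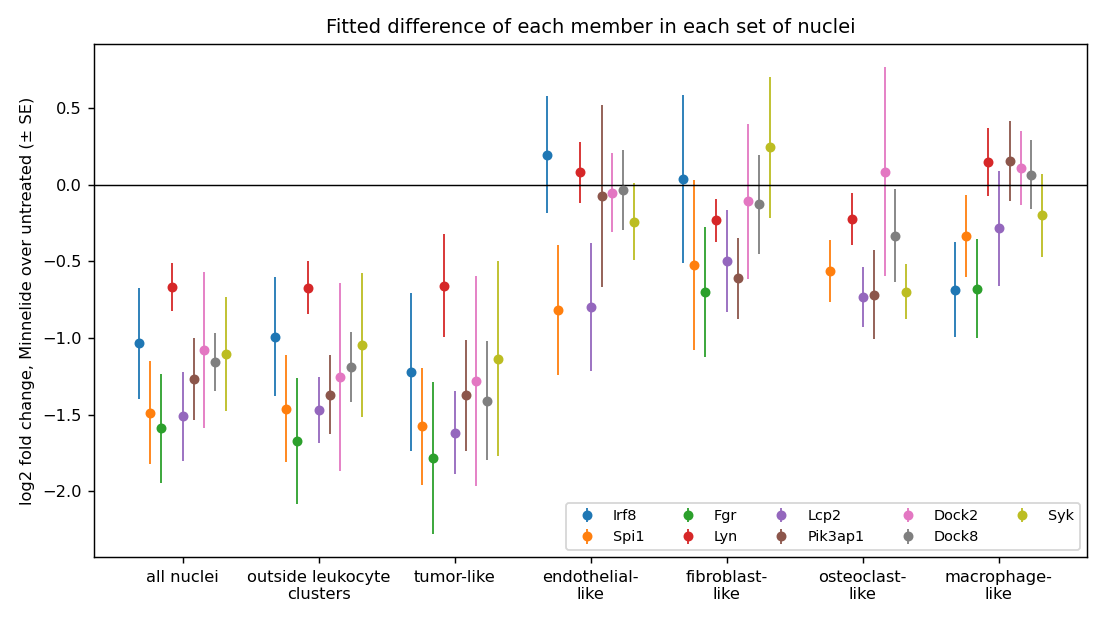
Log2 fold change (Minnelide over untreated, edgeR) of each member on the vertical axis, with its SE as a bar, for 7 sets of nuclei on the horizontal axis; members that did not pass the filter on low counts have no dot. Over all nuclei the 9 members lie between -1.59 and -0.66, and in macrophage-like nuclei between -0.68 and 0.16.

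Most member UMIs lay outside the leukocyte clusters, so the differences over all nuclei cannot be read as changes in leukocyte nuclei alone. Nuclei outside the leukocyte clusters held 63.6% to 86.4% of the member UMIs of a tumor, from 37.3% to 77.4% for Spi1 and from 75.5% to 91.5% for Lyn. Levels there were low: the summed member level was 747, 331, 326 and 291 CPM in untreated and 172, 207, 182 and 181 CPM in Minnelide tumors, with no overlap. Among the members, 7 of 9 had groups that did not overlap in these nuclei, against 6.34% of the 13749 genes tested, and the median log2 fold change was -1.26 beside 0.01 for all genes. For these nuclei edgeR called 0 genes (1262 at an unadjusted p under 0.05), beside 144 for DESeq2.

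Within tumor-like nuclei alone, the summed level was 879, 296, 213 and 281 CPM in untreated and 149.8, 245, 144 and 135 CPM in Minnelide tumors. Untreated tumor 1 stood apart, and untreated tumor 3 lay under Minnelide tumor 2, so the groups overlapped. The level of Minnelide tumor 2 rests in part on the tumor-like cluster led by genes of a myocyte-like cluster (976 nuclei at 261 CPM). The largest tumor-like cluster of Minnelide tumor 2 (1614 nuclei) stood at 216 CPM, also above untreated tumor 3. Taken singly, 4 of 9 members had tumor-like groups that did not overlap, against 4.56% of the 13107 genes tested. In untreated tumor 1 a single tumor-like cluster of 1793 nuclei, with a median of 10140 UMIs, held 67.9% of the member UMIs and 58.4% of all UMIs of that tumor, at 980.0 CPM. A myocyte-like cluster of 2050 nuclei of the same tumor, with a median of 967 UMIs, had 879.5 CPM, with Dock2, F13a1 and Arhgap15, which also led macrophage-like clusters, among its 10 leading genes beside muscle genes. In endothelial-like nuclei the summed level was 789.6 ± 159 CPM in untreated and 737 ± 115 CPM in Minnelide tumors (SD, n = 4 each), and 0 members had groups that did not overlap, against 1.52% of genes with the Minnelide group lower. These class values set unlike clusters side by side: untreated tumor 1 had an endothelial-like cluster of its own at 800.1 CPM, and in untreated tumor 3 the cluster led by fibroblast genes (339 nuclei) stood at 454 CPM. In the endothelial-like cluster that the other 7 tumors shared, the summed level was 1086, 930.4 and 853 CPM in untreated tumors 2 to 4 and 606, 675, 833 and 834 CPM in Minnelide tumors 1 to 4, with no overlap. That comparison leaves out untreated tumor 1, whose own cluster at 800.1 CPM lay under Minnelide tumors 3 and 4. It has no share over all genes beside it.

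**Figure D3:**
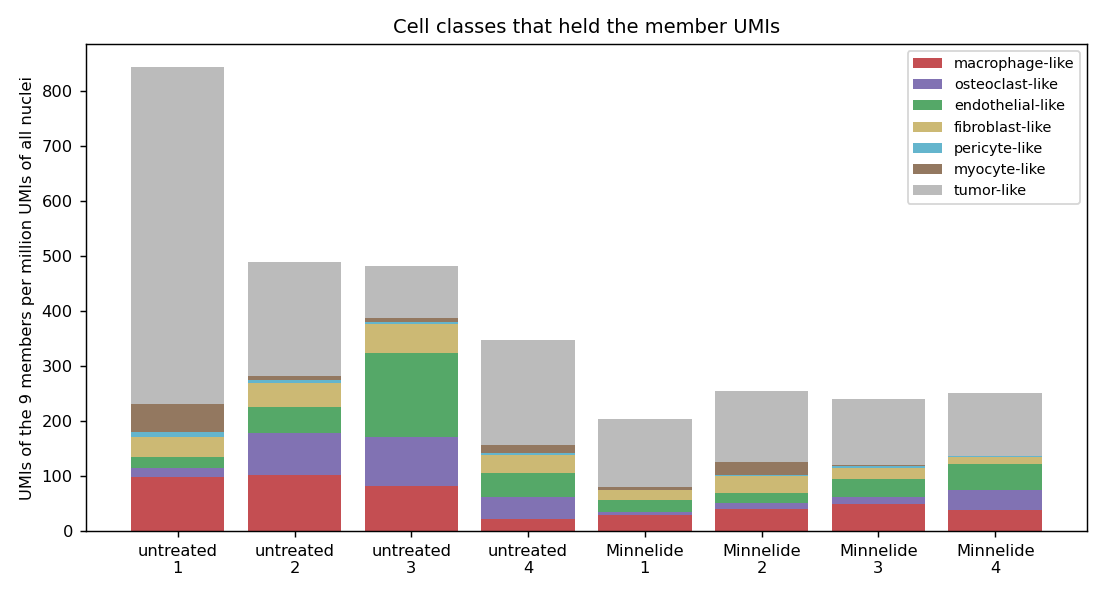
Stacked bars of the summed CPM of the 9 members over all nuclei of a tumor, 1 bar for each, colored by the class of nuclei that held them. Tumor-like nuclei held 19.6% to 72.6% of the member UMIs of a tumor, and the macrophage-like and osteoclast-like segments together held 13.6% to 36.4%.

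The leukocyte markers moved with the members outside the leukocyte clusters, and so did most other marker lists. The 10 leukocyte markers, among them Ptprc (CD45) and Laptm5, summed to 132 to 467 CPM there in untreated and 89.6 to 111 CPM in Minnelide tumors, and 10 of 10 had the lower mean in the Minnelide group. Endothelial markers there had mean sums of 1475 CPM in untreated and 795 CPM in Minnelide tumors, with 9 of 9 lower and overlapping groups. The macrophage, osteoclast, T/NK, B-cell and neutrophil lists also had lower mean sums in the Minnelide group, with overlapping groups. The dendritic list had the higher one (92.0 and 111 CPM). Lower means there were thus not particular to leukocyte markers. Per leukocyte-marker UMI, the members gave 1.84 ± 0.333 UMIs in untreated and 1.93 ± 0.265 in Minnelide tumors outside the leukocyte clusters (SD, n = 4 each). Over all nuclei, with no use of clusters, the ratio was 1.76 ± 0.264 and 1.83 ± 0.259. In macrophage-like nuclei it was 1.64 ± 0.216 and 1.63 ± 0.169. Scaled this way the groups overlapped for the sum in each of these 3 sets. Over all nuclei and outside the leukocyte clusters both sums had lower means in Minnelide tumors, whereas in macrophage-like nuclei neither had. Whether the UMIs outside the leukocyte clusters came from free leukocyte RNA, from leukocyte nuclei inside other clusters or from the nuclei themselves was not tested.

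Single members kept or lost their ratio to the markers outside the leukocyte clusters. In untreated tumors Dock2 gave 0.466 UMIs per leukocyte-marker UMI in macrophage-like and 0.269 in tumor-like nuclei, and Spi1 gave 0.0741 and 0.0703. Lyn gave 0.405 in macrophage-like, 0.526 in tumor-like and 1.16 in endothelial-like nuclei, and Dock8 gave 0.227, 0.348 and 0.604. Lyn and Dock8 thus exceeded their macrophage-like ratio in endothelial-like nuclei, where the levels were highest outside the leukocyte clusters. Among nuclei outside the leukocyte clusters that had no UMI of any of the 10 leukocyte markers, the members summed to 194 to 279.7 CPM in untreated and 104 to 134 CPM in Minnelide tumors, with no overlap. Such nuclei made up 46.0% to 84.0% of all nuclei outside the leukocyte clusters in untreated and 68.4% to 79.4% in Minnelide tumors. Nuclei with UMIs of 3 or more of the markers made up 0.366% to 17.5% in untreated and 1.90% to 3.88% in Minnelide tumors. Depth per nucleus bears on both shares and differed between tumors as given above. Nuclei with no marker UMI thus need not be equally free of leukocyte RNA in both groups.

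**Figure D4:**
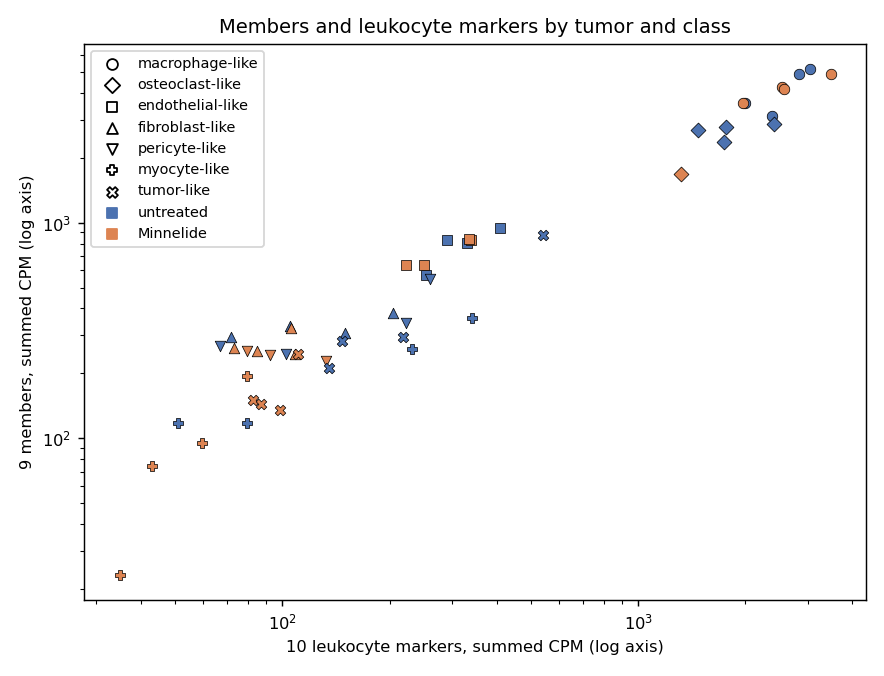
Summed CPM of the 9 members against summed CPM of the 10 leukocyte markers, both on log axes, 1 point per tumor and class with at least 50 nuclei (shape: class, color: group). Macrophage-like and osteoclast-like points lie at the upper right and the other classes trail along the same band, with the tumor-like point of untreated tumor 1 to the right of the other tumor-like points.

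The share of nuclei with a UMI differed by member in both leukocyte classes, and the shares are given over the nuclei of each group with no test. Pooled this way, tumors with more nuclei weigh more. No such shares were computed over all genes, so counts of members by direction have none beside them. With each nucleus thinned to 1000 UMIs, a UMI of Dock2 was found in 62.8% of untreated and 63.8% of Minnelide nuclei of the macrophage-like class (77.3% and 80.0% at full depth), against 2.32% of untreated and 3.23% of Minnelide nuclei of the fibroblast-like class, which should lack the gene (6.25% and 6.48% at full depth). Median depths were 2181 and 2190 UMIs in macrophage-like and 2997 and 3296 UMIs in fibroblast-like nuclei. In the macrophage-like class the thinned shares of Lyn and Pik3ap1 were likewise higher in the Minnelide group, and those of the other 6 members were lower: 11.1% and 7.94% for Irf8, 18.4% and 14.3% for Spi1, 14.9% and 9.37% for Fgr, 18.3% and 14.9% for Lcp2, 43.2% and 39.3% for Dock8 and 27.5% and 22.2% for Syk. No order is read from the share of Dock8, whose mean CPM was higher in the Minnelide group. At full depth the shares were 23.8% and 15.7% for Irf8, 37.1% and 26.9% for Spi1, 28.3% and 23.3% for Fgr, 38.5% and 27.9% for Lcp2, 65.7% and 56.7% for Dock8 and 51.7% and 46.2% for Syk. Taken by tumor, the ranges of the thinned macrophage-like shares overlapped between the groups for each member. Means over the 4 tumors of a group were 11.7% and 8.77% for Irf8, 17.4% and 15.9% for Spi1 and 13.5% and 9.37% for Fgr. They were 15.8% and 14.9% for Lcp2, 42.2% and 39.35% for Dock8 and 27.8% and 22.0% for Syk. In the osteoclast-like class 8 of 9 members had the lower pooled thinned share in the Minnelide group, Lyn by little (30.5% and 29.4%). Fgr had the higher one (0.442% and 2.58%), and means over tumors had the same directions. By tumor, these ranges overlapped for Irf8, Lyn, Pik3ap1, Dock2, Dock8 and Syk, and a Minnelide tumor was the highest for Lyn, Pik3ap1 and Dock8. Ranges did not overlap for Spi1 and Lcp2, both lower in the Minnelide group, or for Fgr, with 10 untreated and 8 Minnelide UMIs. At full depth Fgr (1.27% and 4.08%) and Dock2 (13.3% and 14.8%) were higher in the Minnelide group. For Spi1 the osteoclast-like shares were 28.0% and 17.5% (65.2% and 58.7% at full depth), against 0.869% and 1.00% in fibroblast-like nuclei (3.04% and 2.42% at full depth). A UMI of at least 1 member was found at the fixed depth in 94.4% of untreated and 93.9% of Minnelide nuclei of the macrophage-like class (98.7% and 98.1% at full depth). Nuclei under 1000 UMIs, 55 untreated and 33 Minnelide in the macrophage-like class and 6483 and 253 in the tumor-like class, were left out.

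Promoter sequences were looked at because the members were lower together over all nuclei. RefSeq starts on GRCm38.p6 were listed for 7 of the 9 members, with 9 windows of 250 bases before a start. The letters GAGGAAG, the core bound by PU.1, were searched on both strands and lay in the windows of 2 of those 7 genes, Dock2 and Pik3ap1, against 12.0% of all 27025 genes listed. The ETS-IRF composite element was found in 0 of the 7 genes and in 2.68% of all. Both matches read forward and ended 2 bases (Dock2) and 4 bases (Pik3ap1) before the start. The windows of Dock2, at chr11:34783906-34784155 (minus strand), and Pik3ap1, at chr19:41385103-41385352 (minus strand), are shown with GAGGAAG in capitals, and that of Lcp2, at chr11:34046678-34046927 (plus strand), is shown as a member that was lower in osteoclast-like nuclei and has no match.
Dock2: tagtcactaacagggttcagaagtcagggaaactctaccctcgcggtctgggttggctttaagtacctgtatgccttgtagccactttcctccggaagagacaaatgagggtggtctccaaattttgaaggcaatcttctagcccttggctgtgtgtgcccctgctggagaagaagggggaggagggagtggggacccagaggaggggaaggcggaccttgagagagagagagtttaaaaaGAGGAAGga
Pik3ap1: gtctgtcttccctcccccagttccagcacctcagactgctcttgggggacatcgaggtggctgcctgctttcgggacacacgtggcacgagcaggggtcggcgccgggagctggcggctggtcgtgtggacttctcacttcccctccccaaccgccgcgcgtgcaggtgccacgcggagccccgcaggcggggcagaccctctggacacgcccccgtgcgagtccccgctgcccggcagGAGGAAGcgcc
Lcp2: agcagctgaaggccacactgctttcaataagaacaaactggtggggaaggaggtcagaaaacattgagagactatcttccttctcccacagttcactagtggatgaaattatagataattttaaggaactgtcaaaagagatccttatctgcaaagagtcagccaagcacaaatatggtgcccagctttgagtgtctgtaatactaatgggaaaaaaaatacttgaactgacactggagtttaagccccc
A match is a description of letters only, and 2 of 7 genes is too few to set against the share of all genes.

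Other genes of the same pathway, none of them a member, were described from 7 lists. By edgeR 0 of the listed genes passed an adjusted p under 0.05 in either set of nuclei, so the counts that follow are of signs, beside medians over all genes of -0.02 in macrophage-like and 0.01 in all nuclei. Of 17 receptors and ITAM adaptors, those that passed the filter were 7 lower and 4 higher of 11 in macrophage-like nuclei (median log2 fold change -0.13) and 13 lower and 1 higher of 14 in all nuclei (median -0.94). In macrophage-like nuclei the integrin chain Itgam had a log2 fold change of -0.52 ± 0.29 (SE), the lectin receptor Clec4d 0.63 ± 0.40, and the inhibitory receptor Sirpa 0.09 ± 0.24. Cd84, a SLAM-family receptor, had 0.27 ± 0.35. Each of these had an edgeR adjusted p of 1 in macrophage-like nuclei.

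Of 14 kinases and phosphatases, those that passed the filter were 11 lower and 3 higher of 14 in macrophage-like nuclei (median log2 fold change -0.11) and 12 lower and 2 higher of 14 in all nuclei (median -0.58). The kinase Btk, which acts with Syk, had a log2 fold change of -0.35 ± 0.27 (SE) in macrophage-like and -1.27 ± 0.34 in osteoclast-like nuclei (edgeR adjusted p = 0.215). In macrophage-like nuclei the protein kinase C genes Prkcd and Prkcb had 0.33 ± 0.28 and -0.35 ± 0.32, and the phosphatase Inpp5d (SHIP1) had -0.02 ± 0.20. Of 16 adaptors and effectors, those that passed the filter were 9 lower and 5 higher of 14 in macrophage-like nuclei (median log2 fold change -0.05) and 13 lower and 3 higher of 16 in all nuclei (median -0.79). Vav3, an exchange factor for RAC, had 0.46 ± 0.30 in macrophage-like and 1.38 ± 0.39 in osteoclast-like nuclei (edgeR adjusted p = 0.223), where all 4 Minnelide tumors were above all 4 untreated ones. The adaptors Fyb and Gab3 had 0.20 ± 0.41 and -0.39 ± 0.27 in macrophage-like nuclei.

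Of 13 genes of the RAC and WASP cytoskeleton, those that passed the filter were 6 lower and 4 higher of 10 in macrophage-like nuclei (median log2 fold change -0.05) and 12 lower and 1 higher of 13 in all nuclei (median -1.05). Fermt3 (kindlin-3), which activates integrins, had -0.63 ± 0.29 (SE) in macrophage-like and -1.08 ± 0.26 in osteoclast-like nuclei (edgeR adjusted p = 0.215). Wipf1, which binds WASP, had -0.43 ± 0.23, Elmo1, the partner of several DOCK proteins, 0.08 ± 0.29, and the RAC-inactivating Arhgap15 0.17 ± 0.30 in macrophage-like nuclei. Of 14 myeloid transcription factors, those that passed the filter were 5 lower and 3 higher of 8 in macrophage-like nuclei (median log2 fold change -0.06) and 10 lower and 2 higher of 12 in all nuclei (median -0.52). Mef2c, Cebpb, Etv6 and Runx1 had log2 fold changes of 0.44, -0.63, 0.11 and 0.19 in macrophage-like nuclei.

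Of the 9 other DOCK genes, those that passed the filter were 7 lower and 1 higher of 8 in macrophage-like nuclei (median log2 fold change -0.08) and 6 lower and 3 higher of 9 in all nuclei (median -0.31). Dock6 stood at 66.7 ± 32.8 CPM against 29.8 ± 8.72 CPM (SD, n = 4 tumors each) in macrophage-like nuclei, without overlap. Dock9 had a log2 fold change of -1.09 ± 0.50 (SE) there, and both had an edgeR adjusted p of 1, beside -0.02 for Dock4 and 0.14 for Dock10. Of the 7 other Src-family genes, those that passed the filter were 1 lower and 3 higher of 4 in macrophage-like nuclei (median log2 fold change 0.23) and 5 lower and 1 higher of 6 in all nuclei (median -0.18). Yes1 and Fyn had 0.38 and 0.20 in macrophage-like nuclei.

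The pattern over classes was compared across genes. Over 52 combinations of tumor and class with at least 50 nuclei, the log2(CPM + 1) profile of each member correlated with the mean standardized profile of the other 8 at a Pearson r of 0.620 (Irf8) to 0.930 (Dock8). Outside the members and the marker lists, the 10 genes with the highest r to the members' mean profile were Grb2, Nrros, Sirpa, Fermt3, Fmnl1, Arhgap45, Havcr2, Vav1, Pik3r5 and Ppm1h, with r from 0.913 to 0.938. The points share tumors, library depth and the contrast between leukocyte and other classes, so these values describe likeness of pattern only. Sirpa, Vav1, Fermt3 and Pik3r5 also stood in the pathway lists.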

How the data were processed

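Single-nucleus RNA was measured in 4 untreated and 4 Minnelide tumors. The authors deposited raw UMI counts per gene and nucleus, made with Cell Ranger on mm39 from a 3′ kit with on-chip multiplexing; the submitters' processing notes name Cell Ranger 7.0.1 and bcl2fastq 2.20, and the matrix headers name Cell Ranger 9.0.1. The labels tie 4 matrices to each group, and each matrix was taken as a tumor. Tumor numbers follow file order, and no label ties tumors of the 2 groups, so no test paired them. P-values measure only the spread among these tumors.

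Nuclei under 200 genes were removed, as were those that a mixture model of mitochondrial share on genes per nucleus put in the high-mitochondrial component with a posterior of at least 0.75, and the nuclei with the highest Scrublet doublet scores were removed at 0.8% per 1000 nuclei. Clusters came from scanpy 1.11.5 (Python 3.11.15, 2000 variable genes, 30 components, 40 neighbors, resolution 1.0, igraph 0.11.9, scikit-learn 1.9.0). A marker was raised in a cluster where its CPM, with 20 added, was at least 1.5 times the 10th percentile over the clusters of its tumor, likewise with 20 added, and at least 5% of nuclei held a UMI. A name needed 3 raised markers and went to the list with the highest mean fold. The tools of the study for these steps were not used, and classes rebuilt here can differ from its own. The naming thresholds were set after the data were seen.

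UMIs were summed per tumor and class and given as CPM. Fits used edgeR 4.0.16 (R 4.3.3, quasi-likelihood test, filterByExpr, TMM, Benjamini-Hochberg adjustment over all genes tested, threshold 0.05) on tumors with at least 20 nuclei of the class, with DESeq2 1.42.0 as an alternative. Shares of nuclei were compared by exact permutation (scipy 1.17.1). The edgeR step was tested on simulated data. With the spread estimated from the tumors, it recovered 57 of 100 genes changed 4-fold and 3 of 100 changed 2-fold among 13801 genes in all nuclei, and 77 and 11 of 100 among 7133 genes in macrophage-like nuclei. Outside the leukocyte clusters it recovered 47 and 0 of 100 among 13749 genes.

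The members and lists were chosen with earlier results of these data known. From each of the 7 pathway lists, the genes named were the 2 with the smallest unadjusted edgeR p and the 2 with the highest mean CPM in macrophage-like nuclei, and 10 further genes were named for their likeness to the members. A gene that this rule names is not reported here. Gene positions are from GENCODE vM39 on GRCm39, and promoter sequences from RefSeq on GRCm38.p6. Alternatives covered doublet removal, the mitochondrial filter, clustering, scaling, the filter on low counts and each tumor left out. Naming sub-clusters of leukocyte nuclei again, the fit of osteoclast-like nuclei and the member values outside leukocyte clusters were added after the data were seen.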

Additional observations from a re-analysis of the deposited data

Results flagged for a closer look

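In 10 of 86 groups of 4 tumors, 1 tumor stood apart from the other 3, in that its gap to the nearest tumor divided by the range of the group was above the 95% critical value of Dixon's test. Chance alone gives about 1 in 20 such groups, and the groups here share tumors and nuclei. In nuclei outside the leukocyte clusters, untreated tumor 1 was the high tumor for Dock2 (gap over range 0.895), Irf8 (0.89), Dock8 (0.868), Fgr (0.865), Syk (0.837) and the summed members (0.911). The same tumor held the tumor-like cluster with a high UMI count per nucleus described above. Without it, the log2 fold change of Dock2 outside the leukocyte clusters moved from -1.26 to -0.26. Minnelide tumor 2 was the high tumor for Dock2 in the same nuclei (0.852). In osteoclast-like nuclei Minnelide tumor 4 was high for Syk (0.867), and the share of osteoclast-like nuclei was also highest in that tumor within its group (0.861). Irf8 in osteoclast-like nuclei of Minnelide tumors had a ratio of 1, since a single UMI in Minnelide tumor 1 was the only one found.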

How the results depend on the processing

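No paired analysis was possible because the labels carry no replicate numbers that tie tumors of the 2 groups; same-numbered tumors shared barcodes, but their numbers come from file order. DESeq2 in place of edgeR moved the genes called from 0 to 175 in all nuclei and from 0 to 144 outside the leukocyte clusters, and the cause was not tested. Leaving out each tumor in turn gave 0 to 1 calls in all nuclei, 0 to 0 in macrophage-like nuclei and 0 to 1 outside the leukocyte clusters, the single call coming without Minnelide tumor 2. The members' median log2 fold change ranged from -1.33 to -0.98 in all nuclei, from -0.47 to -0.048 in leukocyte nuclei and from -0.38 to 0.094 in macrophage-like nuclei, the values of -0.048 and 0.094 coming without untreated tumor 1. Of the difference in summed CPM, the leukocyte part ranged from -98.8 to -60.4, the part from number alone from -87.3 to -45.7, the part from level alone from -17.3 to 2.35 and the part outside from -268 to -120, the last value and the positive level part coming without untreated tumor 1. The differences in share ranged from -3.21 to -1.29 percentage points for leukocyte, from -1.92 to -0.53 for macrophage-like and from -1.38 to -0.51 for osteoclast-like nuclei, and no share passed the test under any alternative. Under all alternatives run, 0 of 117 log2 fold changes of single members changed sign in all nuclei and 0 of 135 outside the leukocyte clusters, against 18 of 144 in macrophage-like, 1 of 144 in leukocyte and 5 of 112 in osteoclast-like nuclei (all 5 Dock2). Scaling by total counts alone moved the median of all genes from 0.01 to -0.15 in all nuclei and the members' median from -1.15 to -1.33. Depth limits Irf8 and Fgr in osteoclast-like nuclei, and most classes of untreated tumor 4. Among these are its tumor-like (median 810 UMIs) and macrophage-like nuclei (59 nuclei, median 1330 UMIs). Its myocyte-like nuclei had a median of 2824 UMIs, above those of untreated tumors 1 and 2 (1322 and 2334 UMIs).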
